A study of Mus musculus with 11 samples.

Results

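The sarcomeric myosin light chains are described here, as the messenger RNA of 6 genes, Myl1, Mylpf, Myl3, Myl2, Myl4 and Myl6b, in the tibialis anterior (TA) muscle of 11 mice. The members were chosen by gene symbol. Each of the 6 has 1 probe set on the array, marked as not cross-hybridizing, so the 6 make up 6 of 28350 probe sets. The mice were 3 C57 wild types, 4 untreated mdx mice and 4 mdx mice given Pip6e-PMO, and all were taken at 14 weeks of age. The labels give the strain of all 11 as C57/B10. The mdx mouse lacks dystrophin through a point mutation in the Dmd gene, which both mdx groups carry. Pip6e-PMO is an antisense morpholino oligonucleotide joined to a cell-penetrating peptide. It makes the splicing machinery leave out the exon with the mutation, and it was given once, into the tail vein, at 12.5 mg/kg and 12 weeks of age. Each mouse was 1 Affymetrix Mouse Gene ST 1.1 array of whole muscle, so fewer cells of a type and less RNA per cell cannot be told apart.

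Every myosin head of the thick filament carries an essential and a regulatory light chain, both wrapped around the lever arm that moves during the power stroke. Vertebrate muscle keeps separate genes for them. Fast fibres use Myl1 (essential) and Mylpf (regulatory), while slow fibres and the heart ventricle use Myl3 (essential) and Myl2 (regulatory). Myl4 is the essential chain of embryonic skeletal muscle and of the atria, and comes back in regenerating fibres. Myl6b is an essential chain known from slow and embryonic muscle and also from non-muscle cells. The TA is a mostly fast muscle, and in mdx mice it goes through cycles of fibre death and regeneration.

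The stretches before the starts of Myl3 and Myl4 are shown because these genes moved in opposite directions in all 3 comparisons. They are the 250 bases before a RefSeq start (GRCm38.p6), 5′ to 3′ on the gene's strand. Capitals mark the E-box (CANNTG), the MCAT element (CATTCC) and the CArG box, each searched on both strands. None of the capitalized matches overlap.
Myl3, plus strand, chr9:110763428-110763677: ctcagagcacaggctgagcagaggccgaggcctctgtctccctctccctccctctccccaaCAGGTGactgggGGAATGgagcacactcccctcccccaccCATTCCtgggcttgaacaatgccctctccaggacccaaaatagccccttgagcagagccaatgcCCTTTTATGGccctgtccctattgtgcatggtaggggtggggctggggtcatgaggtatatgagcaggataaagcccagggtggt
Myl4, plus strand, chr11:104550413-104550662: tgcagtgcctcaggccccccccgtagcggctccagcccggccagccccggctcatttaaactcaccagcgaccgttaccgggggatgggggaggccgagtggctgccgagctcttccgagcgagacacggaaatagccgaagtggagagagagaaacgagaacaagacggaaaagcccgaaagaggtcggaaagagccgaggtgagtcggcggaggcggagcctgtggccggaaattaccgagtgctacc
The Myl3 stretch held 1 E-box at position -189 from the start, MCAT elements at -177 and -149, and a CArG box at -85. The Myl4 stretch held none of these letters, nor a MEF2 box or TATAAA. All 6 members matched this table, Myl2 with 2 starts. Of the others, Myl1 had 1 E-box, 1 MCAT element and 1 TATAAA, Mylpf and Myl6b had 1 E-box each, 1 Myl2 stretch had 1 E-box, and the other had 2 E-boxes and 1 TATAAA. Over 32851 such stretches of mouse genes, 66.2% held an E-box, 12.6% an MCAT element, 2.92% a MEF2 box, 1.47% a CArG box and 12.4% TATAAA. A match is a string of letters, and which start these muscles used was not measured.

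The arrays were alike in overall signal, with medians between 27.5 and 28.6 on the intensity scale. One array stood apart, that of treated mouse 2. Its median deviation from its group, scaled to an SD, was 0.381 on the log2 scale, against at most 0.257 for any other array. The study reported the least exon skipping and, by mass spectrometry, the least dystrophin in its treated sample T2, which has the same number. Its western blot values were not significantly correlated with either measure. Whether a weak response or the array itself set treated mouse 2 apart was not tested. Counts for the treated group are given also without this mouse where they change. Mice are numbered within each group as in the labels. The numbers of arrays, 3 or 4 a group, limit the precision. All 6 members passed the minimum signal, a mean of 30 in at least 1 group, as did 14494 probe sets in all. A difference was called at a limma adjusted p under 0.05. Leaving out treated mouse 2 also changed the counts over all probe sets. In treated against mdx 4123 of 14535 were called, beside 1615 of 14494 with it. In treated against C57 the counts were 4954 and 3564, and in mdx against C57 2215 and 1742. List counts without this mouse are to be read beside these. List counts with it are to be read beside the shares called over all probe sets. These were 12.0% in mdx against C57, 11.1% in treated against mdx and 24.6% in treated against C57.

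The light chains of fast fibres varied least among the 6 members, over 0.20 log2 for Myl1 and 0.24 log2 for Mylpf, and neither passed the test in any comparison. Myl1 read 12.46, 12.49 and 12.37 (log2 intensity) in C57 mice 1 to 3, 12.51, 12.55, 12.52 and 12.57 in mdx mice 1 to 4, and 12.54, 12.38, 12.47 and 12.50 in treated mice 1 to 4. The mdx values lay above all C57 values by a gap of 0.02, and the treated mice overlapped both groups. The group means were 12.44 ± 0.06 (SD, n = 3), 12.54 ± 0.03 (n = 4) and 12.47 ± 0.07 (n = 4). The difference between mdx and C57 was 0.10 log2 (95% interval -0.08 to 0.27, limma adjusted p = 0.523). After treatment the difference from mdx was -0.07 (-0.23 to 0.10, limma adjusted p = 0.589). Against C57 it was 0.03 (-0.14 to 0.21, limma adjusted p = 0.793).

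Mylpf, the regulatory partner of Myl1, read 12.47, 12.54 and 12.57 in C57, 12.70, 12.69, 12.58 and 12.63 in mdx, and 12.51, 12.61, 12.71 and 12.56 in treated mice. Again the mdx mice lay just above the C57 mice, here by 0.01, and the treated mice overlapped both. The difference between mdx and C57 was 0.12 log2 (-0.06 to 0.31, limma adjusted p = 0.417). Treated minus mdx was -0.05 (-0.22 to 0.12, limma adjusted p = 0.685), and treated minus C57 was 0.07 (-0.11 to 0.26, limma adjusted p = 0.56). For both genes the order of means was C57, treated, mdx, with no neighbours that passed the test. Both probe sets sat near the top of the array. Myl1 ranked within the top 0.404 to 0.584% of probe sets and Mylpf within the top 0.305 to 0.481%, and the highest value on any array was between 13.63 and 13.91. Whether signals this high are compressed was not tested.

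**Figure D1:**
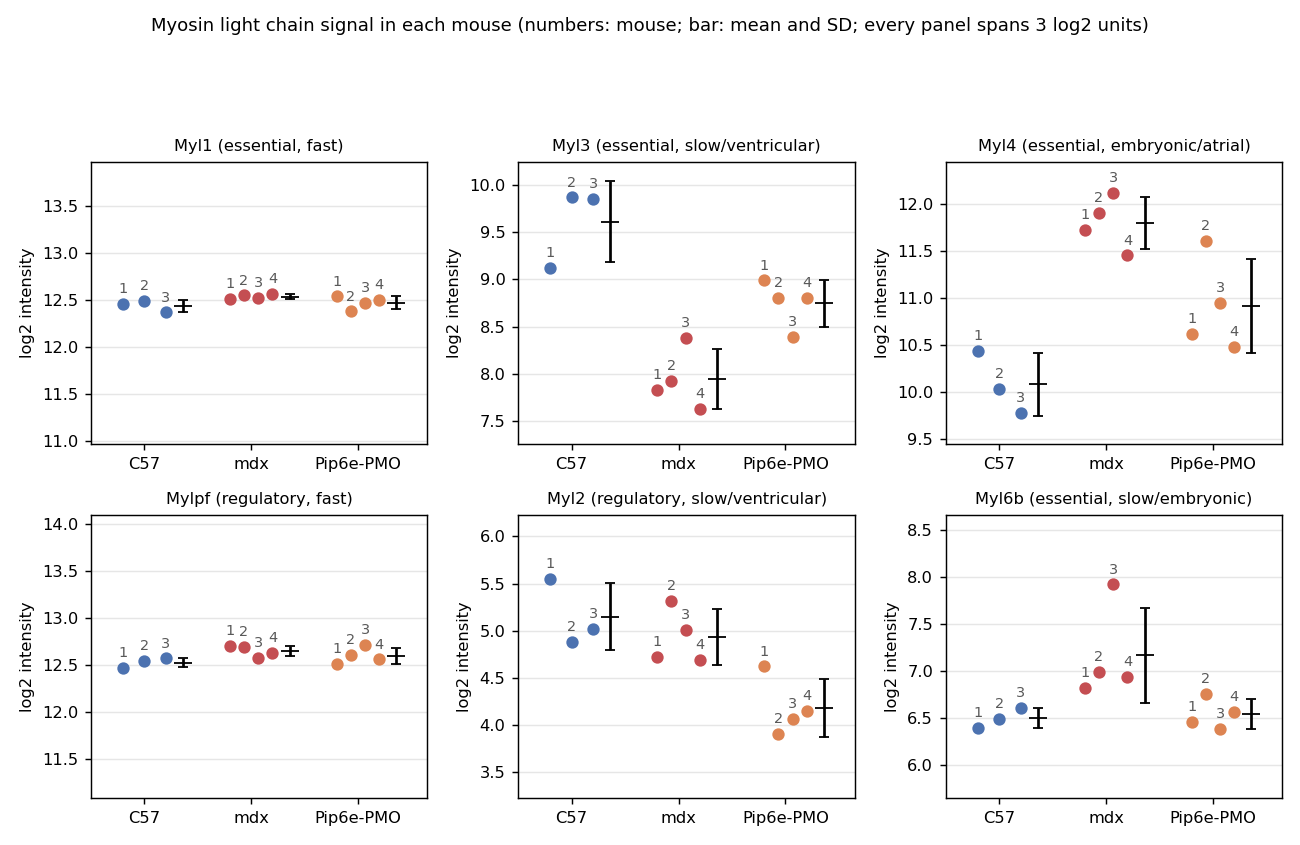
Log2 intensity of the 6 light chain genes in each of the 11 mice, numbered within the groups C57, mdx and Pip6e-PMO, with the mean and SD of each group beside the points. Each panel spans 3 log2 units. Myl1 and Mylpf lie nearly flat, Myl3 is lowest and Myl4 highest in mdx mice, and Myl2 is lowest in treated mice.

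Myl3, the essential light chain of slow fibres and the ventricle, fell in mdx muscle and was higher again after treatment. It read 9.12, 9.87 and 9.85 in C57 mice, 7.83, 7.92, 8.38 and 7.63 in mdx mice, and 8.99, 8.80, 8.39 and 8.80 in treated mice. The 3 groups did not overlap, and treated mouse 3 lay only 0.01 above the highest mdx mouse. The means were 9.61 ± 0.43 (SD, n = 3), 7.94 ± 0.32 (n = 4) and 8.75 ± 0.25 (n = 4). In mdx the gene was 3.19-fold lower than in C57, a difference of -1.67 log2 (SE 0.22, 95% interval -2.15 to -1.20, limma adjusted p = 5.06e-04). Treated mice were 1.75-fold above mdx (0.81 log2, SE 0.20, 0.37 to 1.24, limma adjusted p = 0.0297). They were still 1.83-fold below C57 (-0.87 log2, SE 0.22, -1.34 to -0.40, limma adjusted p = 0.0144). Expressed as a share of the distance from the mdx mean to the C57 mean, treated mice 1 to 4 had covered 62.7%, 51.4%, 26.9% and 51.4%, a mean of 48.1%. The mean share was 47.0% without treated mouse 2.

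Myl2, the regulatory chain of the same slow myosin, read lowest in treated mice and did not pass the test between mdx and C57. It read 5.55, 4.88 and 5.02 in C57, 4.72, 5.32, 5.01 and 4.69 in mdx, and 4.62, 3.90, 4.06 and 4.15 in treated mice. The C57 and mdx mice overlapped, and all treated mice lay below both, by 0.07 against the lowest mdx mouse. The difference between mdx and C57 was -0.22 log2 (SE 0.21, 95% interval -0.67 to 0.24, limma adjusted p = 0.595). This probe set is dim. Its mean intensities were 36.2 in C57, 31.1 in mdx and 18.5 in treated mice, so it passed the minimum of 30 only through the C57 and mdx groups, where it is higher, and no fold is given against the treated mice. Between the values as measured, treated mice differed from mdx by -0.75 log2 (SE 0.19, -1.18 to -0.33, limma adjusted p = 0.0328) and from C57 by -0.97 log2 (SE 0.21, -1.42 to -0.51, limma adjusted p = 0.00741). Myl2 ranked between the top 40.7% and the top 62.8% of the array, and the part of background in these values was not tested. Myh7, the heavy chain of slow fibres, did not reach the minimum in any group, with values between 4.20 and 4.91 over the 11 mice.

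Adipocyte markers, like Myl2, had their lowest group means in treated mice. The order of mice within a group was alike in some groups and not in others. Treated mouse 2 read lowest for Myl2 (3.90) and highest of the treated mice for Adipoq (5.78), Plin1 (6.03) and Cidec (6.10). The Myl2 values of all treated mice lay under the minimum signal. C57 mouse 1 read highest of its group for Myl2 (5.55), Adipoq (6.85), Plin1 (6.82) and Cidec (7.06). Of the mdx mice, mouse 2 read highest for Myl2 (5.32), Adipoq (6.96) and Plin1 (7.24), but not for Cidec. All 3 markers that passed the minimum (Adipoq, Plin1 and Cidec) fell in treated against mdx mice and against C57 mice by limma, 0 of 3 in either by the methods' t-test after adjustment, and the fourth, Lep, was below the minimum in every group. Adipoq, the fat cell hormone adiponectin, differed by -1.64 log2 between treated and mdx mice (limma adjusted p = 0.0199). The summed intensity of the adipocyte list lay between 246.7 and 409 in C57 mice, between 165 and 439 in mdx mice and between 78.7 and 209 in treated mice. Of the cardiac markers, Nppa, Myl7 and Ryr2 were below the minimum in all groups. Myh6, the alpha heavy chain of cardiac muscle, was tested, and treated minus C57 was -1.03 log2 (limma adjusted p = 0.0017), with the treated mean under the minimum. The summed cardiac list lay between 79.7 and 86.3 in C57 mice, between 63.8 and 66.3 in mdx mice and between 48.7 and 67.8 in treated mice. The part of either list in the Myl2 result was not tested.

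Myl4, the embryonic and atrial essential chain, rose in mdx muscle and was lower after treatment. It read 10.44, 10.03 and 9.78 in C57 mice, 11.72, 11.90, 12.11 and 11.45 in mdx mice, and 10.62, 11.60, 10.95 and 10.48 in treated mice. The mdx mice lay 1.01 above the highest C57 mouse. Of the treated mice, 3 lay between the C57 and mdx ranges, and treated mouse 2, at 11.60, lay within the mdx range. The means were 10.08 ± 0.33 (SD, n = 3), 11.80 ± 0.28 (n = 4) and 10.91 ± 0.50 (n = 4). The gene was 3.28-fold higher in mdx than in C57 (1.71 log2, SE 0.25, 95% interval 1.16 to 2.26, limma adjusted p = 0.00114). Treated mice were 1.84-fold below mdx (-0.88 log2, SE 0.23, -1.39 to -0.37, limma adjusted p = 0.0356). They were 1.78-fold above C57 (0.83 log2, SE 0.25, 0.28 to 1.38, limma adjusted p = 0.033). Treated mice 1 to 4 had covered 68.6%, 11.4%, 49.4% and 76.8% of the way from the mdx to the C57 mean. The mean share was 51.6% with treated mouse 2 and 64.9% without it.

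Macrophage markers moved with Myl4 between mdx and C57. All 5 that passed the minimum (Cd68, Csf1r, Emr1, Lyz2 and Itgam) rose in mdx muscle by limma, 2 of them by the methods' t-test, and Cd163 was below it in every group. Itgam passed only through the mdx and treated groups, with a C57 mean of 4.82 log2, which limits what its rise measures. The macrophage sum lay between 861 and 1279 in C57 mice, between 2370 and 3755 in mdx mice and between 1919 and 2462 in treated mice. Between treated and mdx mice 1 of the 5, Cd68, fell (-1.03 log2, limma adjusted p = 0.0245), with 0 of 5 called by the methods' t-test. Their part in the Myl4 values was not tested. Of 4 fibroblast markers 1 was higher in mdx than in C57, and 1 was called by the methods' t-test. Of 4 endothelial markers 2 were higher in treated than in mdx mice, or 3 without treated mouse 2 and 0 by the methods' t-test. Markers of the muscle fibre itself (Ckm, Acta1, Ttn, Mb and Des) gave 0 calls of 5 in each comparison by limma and by the methods' t-test, with 0 at an unadjusted p under 0.05, and their sum ran from 34779 to 36694 over the 11 mice.

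Myl6b did not pass the test in any comparison. It read 6.40, 6.49 and 6.61 in C57, 6.82, 6.99, 7.92 and 6.94 in mdx, and 6.46, 6.76, 6.39 and 6.57 in treated mice. The mdx mice lay above all C57 and all treated mice, by 0.21 and 0.06, and mdx mouse 3 lay far above the rest of its group. The difference between mdx and C57 was 0.67 log2 (SE 0.22, 95% interval 0.19 to 1.14, limma adjusted p = 0.0695). Treated minus mdx was -0.62 (SE 0.20, -1.06 to -0.18, limma adjusted p = 0.0643), and treated minus C57 was 0.05 (-0.43 to 0.52, limma adjusted p = 0.896). Without treated mouse 2 the difference from mdx had a limma adjusted p of 0.0342. The order of means was C57, treated, mdx, and C57 and treated mice overlapped.

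Across the members, mdx against C57 gave 2 calls of 6, where 12.0% of the 14494 probe sets tested were called. The call upward was Myl4, beside 7.06% of all probe sets called higher, and the call downward was Myl3, beside 4.96% called lower. For 5 of 6 members the mdx and C57 mice did not overlap, which held for 24.3% of all probe sets. The study itself had picked Myl3, Myl4 and Myl6b out of these arrays and matched protein data, so their directions are no independent evidence. Treated against mdx gave 3 calls of 6, Myl3 upward and Myl4 and the dim Myl2 downward, or 2 leaving Myl2 aside, where 11.1% of probe sets were called, 7.26% higher and 3.88% lower. Here 3 members did not overlap, against 16.0% of probe sets. There were 4 calls without treated mouse 2, with Myl6b the fourth, where 4123 of 14535 probe sets were called. Leaving out each mouse in turn gave 0 to 4 calls of members, and 296 to 4123 calls over all probe sets. Treated against C57 gave 3 calls of 6, Myl4 upward and Myl3 and Myl2 downward, again 2 leaving Myl2 aside, where 24.6% were called, 15.6% higher and 8.96% lower. In that comparison 63.6% of calls over all probe sets were upward, 51.1% with arrays centred on their medians and 48.2% after quantile normalization was repeated. Here 3 members did not overlap, against 32.0% of probe sets. The median difference of the 6 members was 0.11, -0.34 and 0.04 log2 in the 3 comparisons, and that of all probe sets tested was -0.01, 0.02 and 0.00. The comparisons share mice, so their calls do not stand alone.

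**Figure D2:**
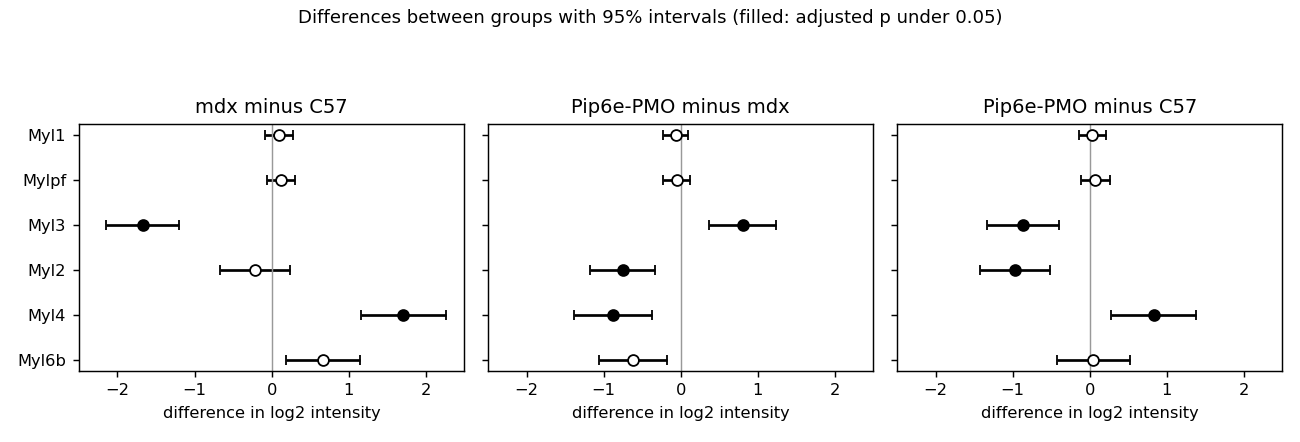
Differences in log2 intensity between groups for the 6 genes, in 3 panels (mdx minus C57, Pip6e-PMO minus mdx, Pip6e-PMO minus C57), with 95% intervals from limma. Filled points have an adjusted p under 0.05. Myl3 and Myl4 are filled in all panels and change sides between the first and the second, and Myl2, dim in treated mice, is filled wherever they are compared.

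Because the probe sets of different genes have no common scale, the balance between chains was followed as a change from the C57 mean. On this scale Myl4 against Myl1, the embryonic against the fast essential chain, had shifted by 1.24 to 1.95 log2 in mdx mice (mean 1.61) and by 0.34 to 1.58 in treated mice (mean 0.80). Myl3 against Myl1 had shifted by -2.11 to -1.31 in mdx mice (mean -1.77) and by -1.25 to -0.72 in treated mice (mean -0.90). Myl6b against Myl1 had shifted by 0.25 to 1.34 in mdx mice (mean 0.57) and by -0.14 to 0.32 in treated mice (mean 0.01). Among the regulatory chains, Myl2 against Mylpf had shifted by -0.60 to 0.01 in mdx mice (mean -0.34) and by -1.33 to -0.51 in treated mice (mean -1.04). Relative to Myl1 and to the C57 mean, Myl4 was up and Myl3 down in each of the 4 mdx mice and each of the 4 treated mice. The C57 mice themselves ran from -0.23 to 0.34 for Myl4 against Myl1 and from -0.51 to 0.31 for Myl3 against Myl1. The lowest treated mouse for Myl4 thus lay level with the highest C57 mouse.

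Genes of developing and regenerating fibres rose in mdx muscle, as Myl4 did. Of 9 such genes, 8 were higher in mdx than in C57 and 0 lower, and the median difference was 1.40 log2. By the methods' t-test after adjustment 3 of the 9 were called. Tmem8c, the fusion protein of myoblasts now named Mymk, was up by 3.28 log2 (limma adjusted p = 0.00116). Chrng, the fetal subunit of the acetylcholine receptor, was up by 2.24 (limma adjusted p = 0.0063). The embryonic heavy chain Myh3 was up by 1.87 (limma adjusted p = 0.0086) and Myog, a transcription factor of differentiating myoblasts, by 1.71 (limma adjusted p = 0.0206). The C57 means of Chrng and Myh3 were under the minimum, at 4.18 and 4.25 log2, which limits what their differences measure. Myod1, at 0.42, was the member not called. Between treated and mdx mice 1 of 9 fell, the fetal troponin Tnnt2 (-0.93, limma adjusted p = 0.0304), with 0 by the methods' t-test, and the median was -0.78. The count of those lower was 6 of 9 without treated mouse 2. Treated mice were above C57 in 4 of 9, or 3 without treated mouse 2 and 1 by the methods' t-test, among them Tmem8c (1.89, limma adjusted p = 0.0164), the cardiac actin of developing muscle Actc1 (1.10, limma adjusted p = 0.00491) and the perinatal heavy chain Myh8 (0.77, limma adjusted p = 0.00385). The fourth was the adhesion molecule Ncam1, at 0.69.

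Treated mouse 2 lay among the mdx mice in Tmem8c and Myog. Tmem8c read 5.53, 5.11 and 5.02 in C57, 8.56, 8.41, 9.27 and 7.75 in mdx, and 6.89, 8.59, 6.91 and 6.04 in treated mice. Myog read 6.34 to 7.22 in mdx mice and 5.08, 7.00, 5.22 and 4.97 in treated mice. In both genes treated mouse 2 fell within the mdx range and the other treated mice below it, the arrangement also seen for Myl4. Of the same list, Myh3, Chrng, Tnnt2 and Actc1 shared this arrangement, and Ncam1, Myh8 and Myod1 did not. For Ncam1 treated mouse 2 (7.63) lay below all mdx mice (7.90 to 8.61) and treated mouse 1 (7.92) within their range. For Myh8 all treated mice lay within the mdx range. For Myl3, at 8.80, treated mouse 2 lay above every mdx mouse.

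Slow fibre genes differed among themselves in mdx muscle. Of the 7 tested, 3 were higher in mdx than in C57 (1 by the methods' t-test) and 0 were lower, with a median of 0.62 log2. As for Myl3, the mdx mean was lower for Myoz2 (-0.76, limma adjusted p = 0.102) and Casq2 (-0.23, limma adjusted p = 0.607), which did not pass the test. The slow troponin Tnni1 was up by 2.47 (limma adjusted p = 0.0132), the calcium pump Atp2a2 by 0.76 (limma adjusted p = 4.08e-04) and the slow tropomyosin Tpm3 by 0.40 (limma adjusted p = 0.0223). Tnni1 read 6.93, 6.61 and 6.94 in C57, 9.15, 9.45, 10.30 and 8.30 in mdx, and 7.44, 9.25, 7.26 and 6.40 in treated mice, so that its mdx mice all lay above C57 where those of Myl3 all lay below. Myoz2, a Z-disc protein of slow and oxidative fibres, rose in treated against mdx mice (0.94, limma adjusted p = 0.0385), and the slow troponin Tnnt1 fell (-0.79, limma adjusted p = 0.033), with 0 of 7 called by the methods' t-test. Against C57, Atp2a2 alone of the 7 was called by limma in treated mice (0.78, limma adjusted p = 2.94e-04), and 2 of 7 by the methods' t-test. Leaving out treated mouse 2, the treated against mdx count was 1 higher and 3 lower.

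The adult fast fibre list gave 1 call over the 3 comparisons. Between mdx and C57, 0 of its 12 genes were called by limma or by the methods' t-test, and 1 had an unadjusted p under 0.05. The largest differences were in Myh2, the type IIa heavy chain (-1.0, limma adjusted p = 0.0574), and in the IIx chain Myh1 (0.19, limma adjusted p = 0.397). Without treated mouse 2 in the fit, 1 of 12 was called lower in mdx. Between treated and mdx mice Myh2 rose (1.45, limma adjusted p = 0.0158), with 0 of 12 called by the methods' t-test. It read 9.15, 9.63 and 8.98 in C57, 8.66, 7.85, 8.71 and 7.79 in mdx, and 10.44, 9.13, 9.49 and 9.76 in treated mice. As with Myl3, every mdx mouse lay below every C57 and every treated mouse, though the treated mice of Myh2 overlapped C57. In treated against C57 mice 0 of 12 were called by limma or by the methods' t-test, 1 had an unadjusted p under 0.05, and 1 was called without treated mouse 2. There the largest differences were those of Myh2 (0.45, limma adjusted p = 0.299) and Myh1 (0.35, limma adjusted p = 0.0674).

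The other light chain genes listed include those of smooth muscle and non-muscle cells and Myl7, the regulatory chain of the atria. Of 6, Myl7 was below the minimum and 5 were tested (Myl6, Myl9, Myl10, Myl12a and Myl12b). Myl10, a regulatory chain, passed the minimum through C57 alone (5.22 log2, with means of 4.63 in mdx and 4.41 in treated mice). Its measured values differed from C57 by -0.59 in mdx (limma adjusted p = 0.00291) and by -0.81 in treated mice (limma adjusted p = 3.6e-04). Myl9, the regulatory chain of smooth muscle, was lower in treated mice than in C57 (-0.43, limma adjusted p = 0.0305). Between treated and mdx mice 0 of 5 were called by limma or by the methods' t-test, 2 had an unadjusted p under 0.05, and 1 was called without treated mouse 2. The largest differences were those of Myl9 (-0.29, limma adjusted p = 0.12) and Myl6 (-0.23, limma adjusted p = 0.186). Of 5 smooth muscle markers, 2 (Cnn1 and Smtn) were lower in mdx than in C57, or 1 by the methods' t-test. Myl9 was not called there (-0.14, limma adjusted p = 0.567). In treated against C57 mice 2 of the 5 (Tagln and Cnn1) were lower, or 1 without treated mouse 2 and 0 by the methods' t-test. The sum of the 5 markers lay between 2412 and 3047 in C57 mice, between 2145 and 2541 in mdx mice and between 2163 and 2358 in treated mice. The part of these markers was not tested.

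A further list held enzymes that phosphorylate the regulatory chains or remove the phosphate. Over all probe sets 12.0% were called in mdx against C57, 11.1% in treated against mdx and 24.6% in treated against C57. With 7 genes tested, counts of 0 or 1 lie near these shares. Mylk3 was below the minimum, and 0 of the 7 tested were called between mdx and C57 by limma or by the methods' t-test, with 2 at an unadjusted p under 0.05. The largest differences were those of Ppp1r12b (-0.37, limma adjusted p = 0.099), a targeting subunit of myosin phosphatase, and of the kinase Mylk4 (-0.32, limma adjusted p = 0.128). Between treated and mdx mice 0 of 7 were called by either test and 1 had an unadjusted p under 0.05, with Ppp1cb at 0.39 (limma adjusted p = 0.299) and Ppp1r12a at 0.38 (limma adjusted p = 0.0851). Without treated mouse 2 this became 1 higher and 1 lower. Ppp1r12a, another phosphatase subunit, was higher in treated mice than in C57 (0.61, limma adjusted p = 0.0113), the only call of the 7 there, with 2 higher and 1 lower when treated mouse 2 was left out and 0 by the methods' t-test.

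Among 8 partners in the thick filament, 1 rose in mdx, Mybph, a relative of myosin-binding protein C (2.13 log2, limma adjusted p = 0.00146). It fell with treatment (-1.09, limma adjusted p = 0.0408) and remained above C57 (1.04, limma adjusted p = 0.0375). The M-band protein Myom2 (0.52, limma adjusted p = 0.00313) and the slow form of myosin-binding protein C, Mybpc1 (0.49, limma adjusted p = 0.0178), were also above C57 in treated mice. Of 10 regulators of fibre type, 9 were tested and Prox1 was below the minimum. Mef2c was higher in mdx (0.77, limma adjusted p = 0.0115) and in treated mice (0.94, limma adjusted p = 0.00303) than in C57. Vgll2, a cofactor of muscle transcription, was higher in treated mice than in mdx (0.47, limma adjusted p = 0.0422) and than in C57 (0.42, limma adjusted p = 0.0492). With treated mouse 2 left out, the treated against mdx calls were 3 higher and 1 lower of the 8 partners, and 3 higher of the 9 regulators. By the methods' t-test 1 of the 8 partners was called in mdx against C57, 0 in treated against mdx and 1 in treated against C57, and 0 of the 9 regulators in each. By limma 1 of 8 partners and 1 of 9 regulators were called in mdx against C57 and again in treated against mdx. The shares over all probe sets were 12.0% and 11.1%, so these counts lie near them. In treated against C57 the limma counts were 3 of 8 and 2 of 9, beside 24.6%.

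The genes whose signal ran most like each member were picked by the highest Pearson correlation over the 11 mice, and are given without a test. The mice share their group, so the correlation of deviations from the group means is given as well. For Myl4 these were Tmem8c (0.979 over all mice, 0.922 within groups), the matrix proteoglycan Bgn (0.975 and 0.865) and the lipid carrier Apoe (0.957 and 0.806). For Myl3 they were the kinase Cdk18 (0.956 and 0.742), the oxygen sensor Egln1 (0.952 and 0.777) and the signalling co-receptor Rgmb (0.950 and 0.793). For Myl2 they were Myh6 (0.899 and 0.766), the complement protein C3 (0.896 and 0.797) and the cytochrome Cyp2e1 (0.893 and 0.754). Myl2 and Myh6 are both dim, with treated means of 4.18 and 4.425 log2, under the minimum of 4.91. This limits what their correlation measures. For Myl6b they were the transcription factor Fosb (0.959 and 0.940), the signalling regulator Rgs3 (0.949 and 0.889) and Gpr77 (0.940 and 0.919). Myl6b, Fosb, Rgs3 and Gpr77 all read highest in mdx mouse 3 (7.92, 6.80, 6.83 and 6.37 log2). Subtracting group means does not remove 1 mouse that stands apart, and the correlations without it were not computed. Myl1 ran most like Arhgdib (0.913 and 0.891), Ttll1 (0.899 and 0.850) and Klc1 (0.892 and 0.835). Mylpf ran most like Tmem116 (0.886 and 0.822), Pigx (0.862 and 0.763) and Itgb1bp2 (0.859 and 0.805).

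**Figure D3:**
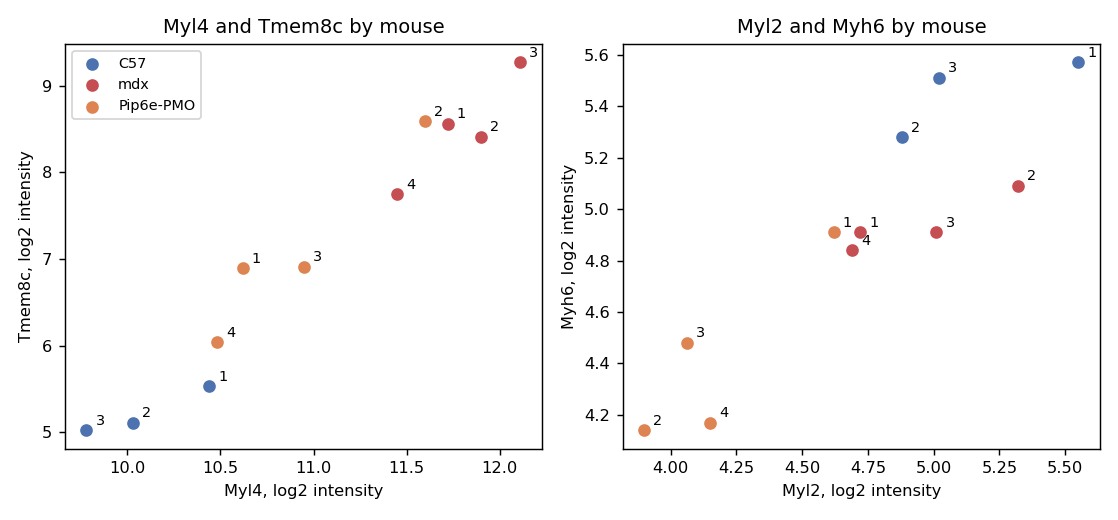
Log2 intensity of Myl4 against Tmem8c (left) and of Myl2 against Myh6 (right) in the 11 mice, coloured by group and numbered within it. On the left the C57 mice lie at the lower end, the mdx mice at the upper end, and treated mouse 2 among the mdx mice. On the right treated mice 2, 3 and 4 lie below all other mice for both genes, which are dim, with treated means under the minimum signal.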

How the data were processed

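Messenger RNA of the TA was measured on 1 array per mouse (3 C57, 4 mdx, 4 Pip6e-PMO). The authors corrected background by RMA, normalized by sketch quantiles, summarized by median polish in Affymetrix Expression Console, and deposited intensities on the linear scale for 28350 probe sets. Their log2 lies on whole hundredths for 100.0% of values. The deposited positions name no genome build, so none is given. Depth has no counterpart here, and the number of arrays limits the precision.

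The 14494 probe sets whose mean reached 30 in any group were tested on log2 intensity with limma 3.58.1 in R 4.3.3, with 1 mean per group over all 11 mice. Tests were two-sided and moderated, p-values were adjusted by Benjamini-Hochberg over all probe sets tested, and calls needed an adjusted p under 0.05. The script was tested on simulated data. Whether animals were independent beyond their labels is not stated, so p-values measure the spread between these mice. The study's own test was an unpaired t-test. Restoration is the treated minus mdx difference as a percent of C57 minus mdx.

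The members and lists were chosen with earlier results of these data known. The text names the 6 members, from each list the called genes (at most the 4 largest differences per comparison; where none is called, the 2 largest differences), and the 3 genes most correlated with each member. Myh7 and Myod1, and the per-mouse values of list genes, were added after their values were seen. Of several probe sets of a gene the brightest was used. Promoter sequences are from RefSeq (GRCm38.p6). Alternatives were the methods' t-test, other signal minimums, centring, repeated quantile normalization, a fit of the compared groups alone, a trended and robust prior, a mean over probe sets, the replicate number as a block, each mouse left out and, added after seeing the data, limma at the threshold of the study's text. Python 3.11.15, pandas 2.3.3, NumPy 2.4.6 and matplotlib 3.10.9 were used.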

Additional observations from a re-analysis of the deposited data

Results flagged for a closer look

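Myl6b in mdx mouse 3 read 7.92 (log2 intensity), while the other 3 mdx mice lay between 6.82 and 6.99. The gap to its nearest neighbour was 0.845 of the group's range, above Dixon's 95% critical value for 4 samples. Of 12 sets of 4 mice tested (6 genes in 2 groups) this was the only one, and chance alone marks about 5% of such sets. Without this mouse, Myl6b differed by 0.42 log2 between mdx and C57 (limma adjusted p = 0.051), and by -0.37 between treated and mdx mice (limma adjusted p = 0.0742).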

How the results depend on the processing

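The 2 calls between mdx and C57 (Myl3, Myl4) held under all alternatives run, with 2 to 3 calls when each mouse was left out and 3 with limma at the threshold of the study's text, which adds Myl6b. The treated comparisons were less steady. Against mdx, 3 calls became 0 with the methods' t-test after adjustment and 1 (Myl3) at the threshold of the study's text (an unadjusted p under 0.01 and 1.5-fold), and 0 to 4 when each mouse was left out. There were none without mdx mouse 2, mdx mouse 4 or treated mouse 4, 1 without mdx mouse 1, mdx mouse 3, treated mouse 1 or treated mouse 3, and 4 without treated mouse 2. Against C57, 3 calls became 0 with the methods' t-test, adjusted or at that threshold, and 1 to 3 when each mouse was left out, with 1 (Myl2) without C57 mouse 2 or C57 mouse 3. Differences when leaving out mice ran from -1.92 to -1.54 for Myl3 and 1.56 to 1.89 for Myl4 in mdx against C57. Against mdx, treated mice ran from 0.70 to 0.95 (Myl3), -0.90 to -0.62 (Myl2) and -1.11 to -0.74 (Myl4). Myl4 against mdx also lost its call with no minimum signal (limma adjusted p = 0.0532), repeated quantile normalization (0.0569) and the compared groups alone (0.0561). Against C57 it lost it with no minimum (0.0523) and the compared groups alone (0.0616). Myl2 was not tested at a minimum of 100. Treated minus C57 changed sign while uncalled for Myl1 (-0.0142 centred, -0.0025 to 0.0633 leaving out mice) and Myl6b (-0.00167 centred, -0.0938 after repeated quantile normalization, -0.0267 to 0.10 leaving out mice). Over all probe sets the t-test called 791, 88 and 1274 after adjustment, against 1742, 1615 and 3564.

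With the replicate number as a block, the members called were 2 in mdx against C57, 0 in treated against mdx (limma adjusted p 0.0518 to 0.0634 for Myl3, Myl2 and Myl4) and 3 in treated against C57, and 1145, 498 and 2332 over all probe sets. The values gave no sign that equal numbers pair the mice. Deviations of same-numbered mice correlated between -0.30 and 0.15 over 10 pairs, 1 of them over 0.1. The 30 pairs with different numbers ran from -0.41 to 0.43, so a weak pairing could not be seen by this measure. Why the calls changed with the block was not tested.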
